A study of Rattus norvegicus with 24 samples.

Results

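The untreated thyroid at day 14 was compared with the untreated thyroid at day 1, using the 6 arrays of 24 whose titles name a normal diet and normal water (letter H, samples 43, 44 and 47 of day 14; letter D, samples 21, 22 and 24 of day 1). All 6 samples are thyroid RNA of adult male Sprague-Dawley rats that received neither an iodine-deficient diet nor perchlorate and had been housed for 2 months plus 14 days or 2 months plus 1 day. The other 18 arrays hold 3 treated arms with the same pair of days and 3 arrays a group: the deficient diet with perchlorate (95 mg of the potassium salt per liter of water, for 14 days or 1 day), the deficient diet alone, and perchlorate alone. The study set out to compare iodine deficiency with perchlorate, and the untreated pair shows what differs between its collection days without either. Each group was collected on 1 day, and the time of day, the order of collection and the array runs are not given in the sources used here, so the day, the time of day, the rats' added age and any shared handling of a group cannot be told apart. The labels do not state whether every sample is its own animal, so the tests weigh only the variation among these samples, some of which can be technical.

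The molecular clock is a feedback loop present in most mammalian cells. BMAL1 and CLOCK bind E-box sequences and switch on the genes of their repressors (the PER and CRY proteins), of the REV-ERB receptors (Nr1d1 and Nr1d2) and of the D-box activators DBP and TEF. The REV-ERBs in turn repress Bmal1, Cry1 and Nfil3 through ROR elements, which the ROR receptors activate, so that E-box genes and ROR-element genes peak at different times of day. The rat thyroid lies on the trachea beneath the strap muscles, beside fat of the neck, and the parathyroid glands sit on or in it, so that a dissected thyroid can carry their RNA.

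No probe set passed the test in the untreated pair. Of 31042 probe sets 0 were called by limma at an adjusted p under 0.05 (background of calls 0%), the smallest adjusted p was 0.301, and 1442 had an unadjusted p under 0.05, 821 of them higher at day 14 and 621 lower. With 1 probe set per named gene, 569 of 14217, or 4%, had an unadjusted p under 0.05. The tissue label fits the defining follicular genes: thyroglobulin (Tg), the scaffold of thyroid hormone, read 13.78, 13.69 and 13.82 at day 14 and 13.97, 13.87 and 13.57 at day 1, as log2(intensity + 16) after quantile normalization, the scale of every level below. A log2 value of 4 on it is an intensity of 0. The adjusted p in the untreated pair was 1.00 for each gene named below unless another is given, and SE is that of the fitted log2 difference. Pax8, a follicular transcription factor, read 12.40, 12.45 and 12.21 at day 14 and 12.57, 12.45 and 12.48 at day 1, and Calca, which encodes the calcitonin of the C cells, lay between 13.45 and 13.78 at day 14 and between 13.50 and 13.70 at day 1. Arrays of 1 day correlated at 0.964 to 0.982 over all probe sets, and arrays of different days at 0.960 to 0.983. Of the 6, sample 22 of day 1 lay farthest from the median of all other arrays of the series, treated arms included. Its median absolute deviation was 0.280 against 0.155 to 0.210. The log2 ratio of the 3′ to the 5′ actin control probe sets was 3.08 to 3.33 at day 14 and 3.52 to 3.62 at day 1, with no overlap. That of the Gapdh control was 1.66 to 1.98 at day 14 and 1.86 to 3.34 at day 1, which overlapped, with the highest value in sample 22. Their part in any result below was not tested.

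The gene with the smallest p of all was Nr1d1, which encodes the repressor REV-ERB alpha. It read 7.32, 7.39 and 7.85 at day 14 and 9.15, 8.97 and 8.77 at day 1. Every day 14 array stood below every day 1 array, with means of 7.52 ± 0.28 at day 14 and 8.96 ± 0.19 at day 1 (SD, n = 3 each). The log2 difference was -1.44 (SE 0.26, adjusted p = 0.301), a level 2.72-fold higher at day 1, and it did not pass the test. Dbp, a D-box activator whose own gene is a direct E-box target, read 7.63, 7.35 and 7.47 at day 14 and 8.72, 8.41 and 8.60 at day 1. Its groups did not overlap either, and its log2 difference was -1.09 (SE 0.21, adjusted p = 0.319). The paralogous D-box activator Tef read 8.12, 7.93 and 8.26 at day 14 and 8.81, 8.56 and 8.82 at day 1. It too was lower in all day 14 arrays, by a log2 difference of -0.62 (SE 0.15), and its 3 probe sets all stood lower.

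The clock list was read as a whole from 24 measured genes of 28 written down. Of these 8 had an unadjusted p under 0.05, 3 higher and 5 lower, where 4% of all 14217 named genes did (2.03% higher and 1.98% lower). In 10 the arrays of the days did not overlap, 4 higher and 6 lower, against 9.61% of all named genes (4.55% higher and 5.06% lower). The list's median difference was -0.03, that of all named genes -0.02, since members stood on both sides. The count of 8 lay between 7 and 9 when each of the 6 arrays was left out in turn. This list, like those below, was written with earlier results of these data known. Its counts therefore describe the list and test nothing.

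The promoters of 3 of the separated genes are shown because each holds, within 300 bases at its start, a motif through which the loop is known to act, and 1 each stands for the REV-ERB, D-box and activator genes (Bhlhe41, which also holds the E-box, is not printed); the sequences are from RefSeq, build GRCr8, read 5′ to 3′ on the gene's strand, with the motif in capitals (Nr1d1 chr10:84229405-84229704, minus strand, 1 of its 2 promoter entries; Tef chr7:115206577-115206876, plus strand; Bmal1 chr1:176766078-176766377, plus strand).
Nr1d1: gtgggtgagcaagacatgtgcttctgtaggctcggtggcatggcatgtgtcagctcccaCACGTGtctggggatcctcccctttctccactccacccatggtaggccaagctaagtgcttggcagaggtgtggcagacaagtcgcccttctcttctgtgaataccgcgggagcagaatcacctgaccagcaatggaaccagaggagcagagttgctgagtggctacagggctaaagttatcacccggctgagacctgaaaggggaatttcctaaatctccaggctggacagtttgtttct
Tef: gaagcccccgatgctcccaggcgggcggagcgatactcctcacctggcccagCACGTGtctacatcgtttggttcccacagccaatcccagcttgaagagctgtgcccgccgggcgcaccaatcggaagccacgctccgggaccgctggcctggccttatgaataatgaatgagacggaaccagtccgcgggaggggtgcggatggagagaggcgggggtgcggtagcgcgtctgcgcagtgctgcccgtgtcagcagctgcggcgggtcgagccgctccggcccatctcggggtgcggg
Bmal1: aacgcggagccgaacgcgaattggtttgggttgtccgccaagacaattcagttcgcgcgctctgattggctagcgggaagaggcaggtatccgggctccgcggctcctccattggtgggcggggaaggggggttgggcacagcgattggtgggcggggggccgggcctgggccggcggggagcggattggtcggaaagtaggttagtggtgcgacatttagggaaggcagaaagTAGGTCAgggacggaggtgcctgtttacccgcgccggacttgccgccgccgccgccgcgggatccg
The E-box CACGTG, which both strands share, stands in the first and the second, and the ROR-element core TAGGTCA in the third. Of 33469 promoter windows 6.42% hold this E-box, and 6.60% hold TAGGTCA or TGGGTCA on either strand. Of the 19 measured clock genes with a promoter entry 4 held the E-box (Bhlhe40, Bhlhe41, Nr1d1 and Tef) and 1 the ROR-element core. A match is a description of these letters only.

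On the REV-ERB side, Nr1d2, which encodes REV-ERB beta, read 11.09, 11.07 and 10.87 at day 14 and 11.78, 11.58 and 11.91 at day 1. It was lower in every day 14 array, with a log2 difference of -0.75 (SE 0.30), and all 3 of its probe sets stood lower. Bmal1, Cry1 and Nfil3, the REV-ERB targets named above, stood on the other side, and no wider set of such targets was read. Bmal1, the partner of CLOCK in the activating dimer, read 8.05, 7.96 and 7.94 at day 14 and 7.26, 7.07 and 7.21 at day 1. All its day 14 arrays were above all its day 1 arrays, by a log2 difference of 0.80 (SE 0.22), a level 1.75-fold higher at day 14. Cry1, a repressor that peaks late in the loop, read 7.99, 8.43 and 7.99 at day 14 and 7.38, 7.26 and 7.33 at day 1, a log2 difference of 0.81 (SE 0.30). Nfil3, the D-box repressor that opposes DBP and TEF, read 7.10, 7.13 and 6.89 at day 14 and 5.59, 6.33 and 6.41 at day 1. It stood higher in each day 14 array, by 0.93 (SE 0.33). Rora, a receptor that activates ROR elements, stood 0.73 higher (SE 0.40) without overlap, and sample 22 of day 1, at 5.99, lay far below the other 2 day 1 arrays, at 7.44 and 7.46.

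The repressor arm was mixed. Per3 read 6.75, 7.22 and 7.18 at day 14 and 7.85, 7.74 and 7.91 at day 1, a log2 difference of -0.78 (SE 0.31) with no overlap. Bhlhe41, an E-box repressor also called DEC2, differed by -0.54 (SE 0.27), again without overlap. Per2 read 8.0, 8.16 and 9.01 at day 14 and 8.48, 9.41 and 8.92 at day 1, so that its days overlapped around a log2 difference of -0.55. The days also overlapped for Per1 (log2 difference 0.23), Cry2 (0.10) and Bhlhe40 (-0.10). Among the activators, Clock differed by 0.10 and its paralog Npas2 by 0.29, both with overlap. Bmal2 went the other way from Bmal1, at -0.44, with levels of 4.32 to 4.45 at day 14 and 4.42 to 5.55 at day 1. Rorb, unlike Rora, stood lower by its brighter probe set, at -0.20, and higher by the other, at 0.29. Both genes overlapped and lay near the lower limit of the scale. Hlf, the third D-box activator, differed by 0.07, and 2 of its 4 probe sets stood higher and 2 lower. The kinases Csnk1d and Csnk1e differed by -0.04 and 0.11, and of the outputs Nampt by -0.03, Wee1 by 0.17 and Usp2 by -0.47, with overlap in each.

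**Figure D1:**
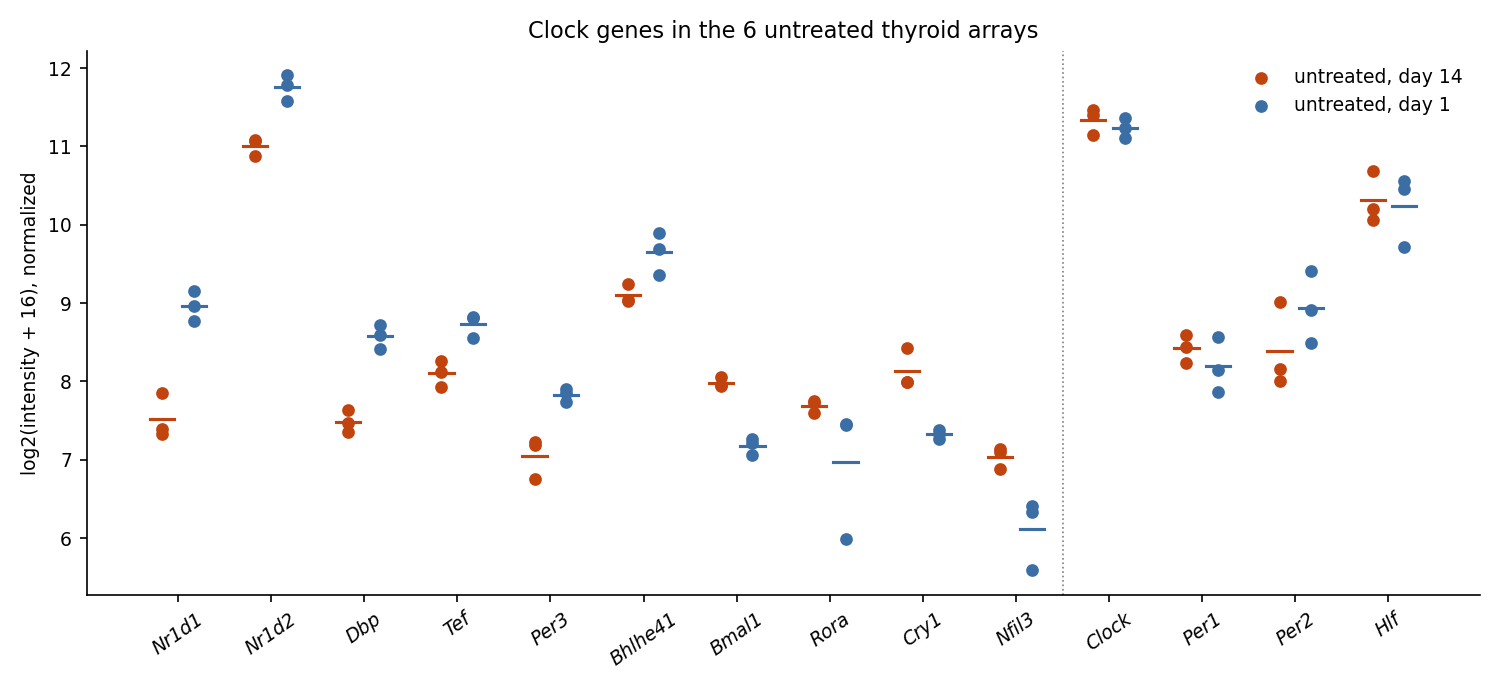
Levels of 14 clock genes on the 6 untreated arrays, as normalized log2(intensity + 16); points are arrays, bars group means of 3, day 14 left of day 1. The 10 genes left of the dotted line are those whose days do not overlap, with Nr1d1 at 7.32 to 7.85 on day 14 and 8.77 to 9.15 on day 1; the 4 on the right overlap.

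The same pair of days was read in the 3 treated arms, which share no array with the untreated pair. In the perchlorate arms the days also differ in how long perchlorate was given. The 3′ to 5′ control ratios differed by day here too. With the diet, Gapdh was 1.64 to 2.14 at day 14 and 2.17 to 2.55 at day 1, and actin 3.17 to 3.38 and 3.39 to 3.67. With diet and perchlorate, Gapdh was 1.94 to 2.21 at day 14 and 2.43 to 3.34 at day 1, while actin overlapped. With perchlorate alone both ratios overlapped. Their part in the values of these arms was not tested. The log2 difference of Nr1d1 was -0.70 (SE 0.26, adjusted p = 0.238) with diet and perchlorate and -1.09 (SE 0.26, adjusted p = 1.00) with the diet alone. It fell by 1.18 (SE 0.26, adjusted p = 0.0183) with perchlorate alone, where 3.34% of named genes were called. Averaged over these 18 arrays it fell by 0.99 (SE 0.15, adjusted p = 0.000587), where 6.08% of named genes were called in that average, 865 of 14217. That call held under all 15 alternatives run, with log2 differences of -1.07 to -0.80, and the perchlorate arm's call under 13 of 15. In 6 of the 15 only an untreated array was left out. Such an array enters these contrasts through the normalization and the common spread alone, and the average stayed at -0.99. These 6 therefore add little to the counts. The only treated array ever left out was sample 18. The perchlorate arm's call was lost on values as deposited, at -0.93 (adjusted p = 0.0664). It was also lost without samples 18 and 22, at -0.92 (adjusted p = 0.0827). Sample 18 of the day 1 perchlorate group lay farthest from the other arrays of the series, with a median absolute deviation of 0.603. It correlated at 0.924 to 0.937 with the other arrays of its group. Hlf, which did not separate in the untreated pair, fell by 1.26 (adjusted p = 0.0241) with diet and perchlorate, where 1.2% of named genes were called, while with the diet alone its log2 difference was 0.34 (adjusted p = 1.00).

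Of the 10 clock genes picked for their separation in untreated arrays, all 10 had the same sign in the arm with diet and perchlorate, 9 with the diet alone and 9 with perchlorate alone. The exception was Per3 in each, at 0.16 and 0.03. The median difference, counted positive in the direction of the untreated pair, was 0.79 in the untreated pair, 0.28 with both treatments, 0.18 with the diet and 0.35 with perchlorate. Since the genes were chosen on the untreated arrays, the larger size there is no finding. The difference between the untreated pair and the mean of the treated arms was tested for each gene and passed for 0 of the 10. The smallest adjusted p was that of Dbp, at -0.73 (SE 0.25, adjusted p = 0.446), and was -0.45 (adjusted p = 0.838) for Nr1d1 and 0.53 (adjusted p = 0.681) for Bmal1.

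**Figure D2:**
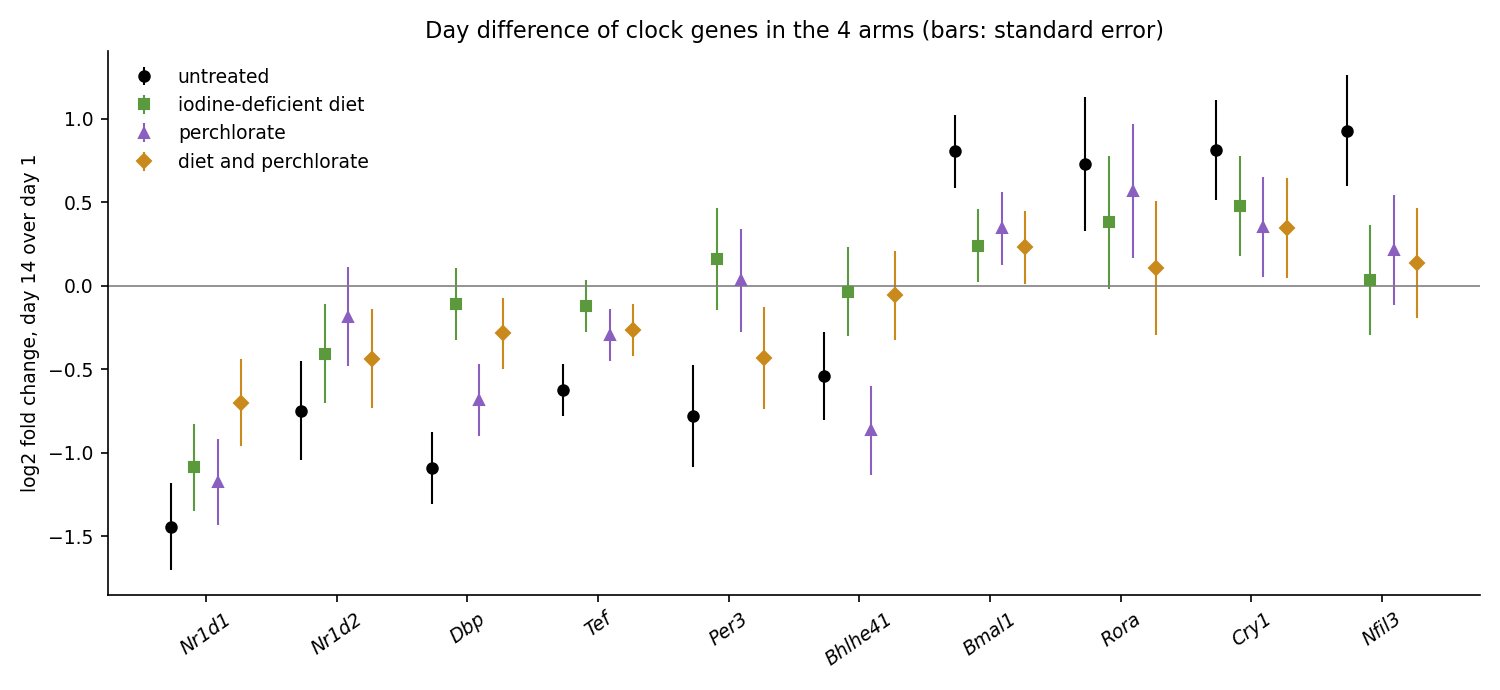
Log2 fold change, day 14 over day 1, of the 10 clock genes in each arm; symbols mark the arms and bars the standard error of the fit. Nr1d1 lies below 0 in all 4 arms, at -1.44 in the untreated pair, -0.70 with diet and perchlorate, -1.09 with the diet and -1.18 with perchlorate.

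The level of Nr1d1 was also read by arm within each day, without a test. At day 14 it ran from 6.52 to 6.86 with diet and perchlorate, from 6.84 to 7.25 with the diet, from 7.23 to 8.08 with perchlorate and from 7.32 to 7.85 in untreated thyroids. At day 1 it ran from 7.05 to 7.65 with diet and perchlorate, from 7.71 to 8.48 with the diet, from 8.43 to 9.30 with perchlorate and from 8.77 to 9.15 in untreated thyroids. On each day the perchlorate and untreated arrays overlapped. The arrays with both treatments and those with the diet overlapped at day 14 and did not at day 1.

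**Figure D3:**
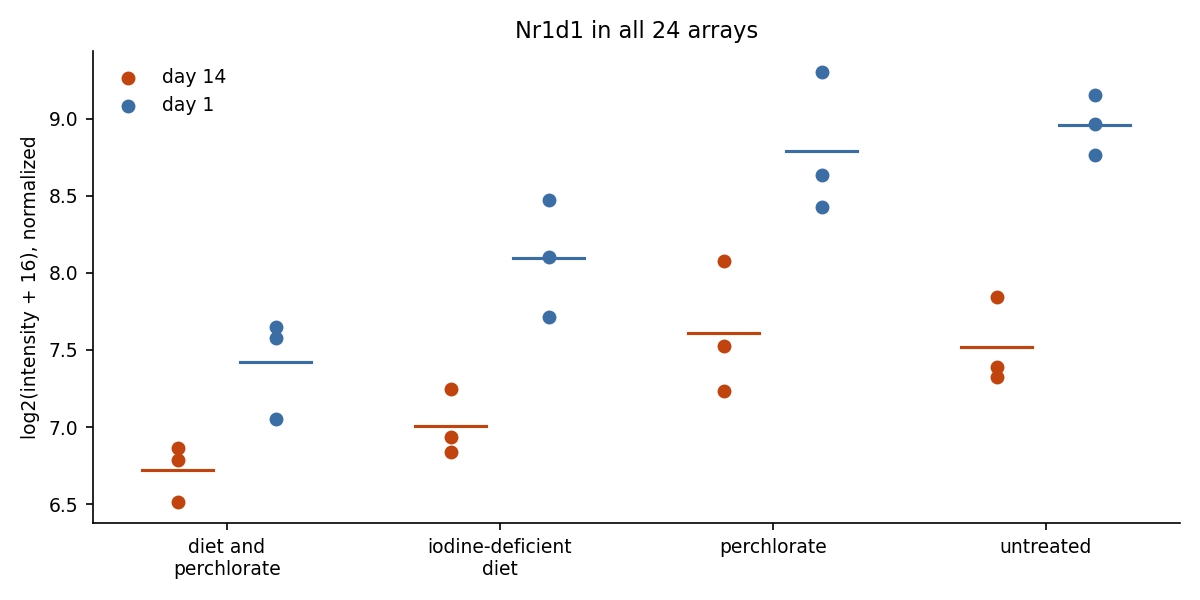
Nr1d1 on all 24 arrays by arm, as normalized log2(intensity + 16), with day 14 left of day 1 and bars at the means of 3 arrays. Within each arm the days do not overlap, and the untreated arrays span 7.32 to 7.85 at day 14 and 8.77 to 9.15 at day 1.

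Among all 14217 named genes 7577 stood lower at day 14. Skeletal muscle markers stood lower at day 14 in 38 of 39 measured genes, with a median log2 difference of -1.03, but their spread within a day was wide. Of these 5 were lower with an unadjusted p under 0.05 (1.98% of all named genes were) and 7 lower without overlap (5.06% of all named genes), with 0 called. Acta1, the actin of skeletal muscle, read 6.67, 9.14 and 4.91 at day 14 and 12.17, 10.79 and 7.97 at day 1. The days overlapped, since sample 44 of day 14 stood above sample 24 of day 1. Myoglobin (Mb), the oxygen store of red fibres, read 4.41, 5.20 and 4.89 at day 14 and 8.66, 8.98 and 7.03 at day 1. It did not overlap, with a log2 difference of -3.39 (SE 1.49). Tnnc2, the calcium-binding troponin subunit of fast fibres, differed by -3.79 (SE 2.28).

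By fibre type, all 13 fast-fibre genes were lower, with a median of -1.63, and all 7 slow-fibre genes were lower, with a median of -0.31; single fast-fibre genes ran from -3.79 to -0.36 and slow-fibre genes from -0.96 to -0.0048, which overlapped, and the difference between the types was not tested. The myogenic regulator Myod1 lay near the lower limit of the scale, from 4.14 to 4.19 at day 14 and from 4.14 to 4.26 at day 1. Samples 21 and 22 of day 1 were highest of the 6 in 27 and 11 of the 39 genes, and sample 47 of day 14 was lowest in 27. The summed intensity of the list was 7464 to 10144 at day 14 and 9774 to 39229 at day 1. The median was -0.71 without sample 21, -1.18 without sample 22 and -1.88 without sample 24 of day 1. The 5 genes with an unadjusted p under 0.05 were 0 without sample 21 or 22 of day 1 or sample 47 of day 14, 2 and 3 without samples 43 and 44 of day 14, and 12 without sample 24 of day 1. In these bulk samples fewer cells of a type and less RNA per cell cannot be told apart.

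Fat showed the widest single difference. Ucp1, the uncoupling protein that brown fat uses to make heat, read 6.03, 9.93 and 4.66 at day 14 and 10.16, 12.79 and 11.80 at day 1. The days did not overlap, though samples 44 of day 14 and 21 of day 1 lay close, and the log2 difference of -4.70 (SE 1.62) was the lowest of all named genes without passing the test. Cox8b, a cytochrome oxidase subunit of brown fat and muscle, read 5.18, 7.31 and 4.23 at day 14 and 7.66, 9.80 and 8.64 at day 1, a difference of -3.13 (SE 1.15). It followed the same order of arrays within each day. Cpt1b, the mitochondrial fatty acid importer of muscle and brown fat, differed by -1.89 and Fabp3, a fatty acid carrier of heart and muscle, by -1.23, both without overlap, and Cidea, a lipid droplet protein, by -1.83 with overlap. Of the 10 brown fat markers 10 stood lower, 5 with an unadjusted p under 0.05 (1.98% of all named genes were lower at that level), and the median was -0.85. Without sample 47 of day 14 the 5 became 1, without sample 22 of day 1 they became 2, without sample 43 of day 14 or sample 24 of day 1 they became 3, and without sample 44 of day 14 they became 7. Ppargc1a, a coactivator also active outside fat, differed by -0.04, and by 0.46 with its probe sets averaged.

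The general adipocyte list gave 23 of 26 genes lower, 8 with an unadjusted p under 0.05 (1.98% of all named genes were lower at that level) and 5 without overlap (5.06% lower), with a median of -0.88. Sample 22 of day 1 was highest of the 6 in 25 of the 26. Without it the median was -0.46 and 0 genes had an unadjusted p under 0.05. Without sample 21 of day 1 that count was 15, without sample 43 of day 14 it was 1, and without sample 47 it was 0. Plin1, the coat of lipid droplets, read 8.36, 9.61 and 8.71 at day 14 and 9.17, 11.95 and 10.52 at day 1, so that sample 44 of day 14 stood above sample 21 of day 1. Fasn, which makes fatty acids, differed by -1.49 (SE 0.68) and Aqp7, a glycerol channel, by -1.44 (SE 0.67), where Fasn overlapped and Aqp7 did not. Leptin (Lep) lay at 4.11 to 4.23 at day 14 and 4.08 to 4.21 at day 1, near the lower limit of the scale. The summed intensity of the list was 19144 to 35024 at day 14 and 30996 to 92920 at day 1.

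Parathyroid markers went the other way, with 4 of 4 measured genes higher at day 14, 3 of them without overlap (4.55% of all named genes were higher in this way) and 2 with an unadjusted p under 0.05 (2.03% higher). Klotho (Kl), a co-receptor of the hormone FGF23 in parathyroid and kidney, read 7.82, 7.35 and 7.51 at day 14 and 6.70, 4.97 and 6.58 at day 1. Its days did not overlap, and its log2 difference was 1.48 (SE 0.41), or 0.92 without sample 22 of day 1. Gata3, a transcription factor of parathyroid and T cells, read 9.94, 9.17 and 9.20 at day 14 and 8.95, 6.23 and 8.45 at day 1, a difference of 1.56 (SE 0.66). In each gene sample 22 of day 1 was the lowest of the 6. The calcium sensor Casr, which the C cells also carry, stood 0.72 higher (SE 0.42) without overlap. Parathyroid hormone itself (Pth) read 14.01, 13.96 and 14.07 at day 14 and 14.00, 13.42 and 13.86 at day 1, which overlapped. The summed intensity of the 4 was 21500 to 21963 at day 14 and 13128 to 20733 at day 1, and without sample 22 the median of 1.10 was 0.65. The 2 genes with an unadjusted p under 0.05 were 1 without sample 43 of day 14 or sample 22 of day 1 and 4 without sample 21 of day 1.

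**Figure D4:**
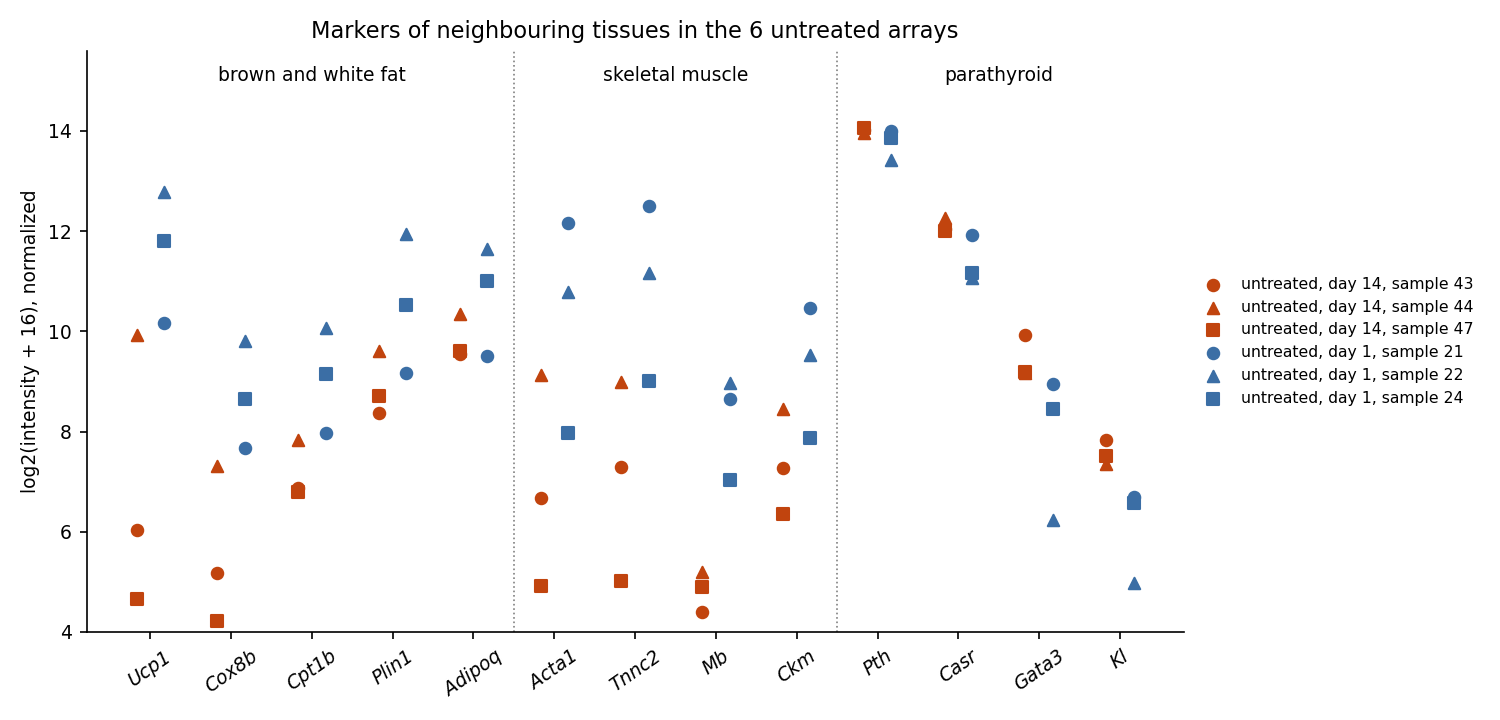
Markers of fat, skeletal muscle and parathyroid on the 6 untreated arrays, as normalized log2(intensity + 16), day 14 left of day 1, with a symbol per sample. Ucp1 spans 4.66 to 9.93 at day 14 and 10.16 to 12.79 at day 1, and sample 22 of day 1 (blue triangles) is highest for fat and lowest for the parathyroid genes.

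In the mean of the treated arms the muscle median was smaller, at -0.30, and the parathyroid median had the opposite sign, at -0.38. That mean was -0.67 for adipocyte and -0.75 for brown fat markers. By arm, the muscle median was -0.96 with diet and perchlorate, -0.10 with the diet and 0.16 with perchlorate. The parathyroid median lay between -0.39 and -0.34 in the 3 arms. Ucp1 differed by -2.24 with diet and perchlorate, by -0.77 with the diet and by -4.77 with perchlorate, and averaged -2.59 (adjusted p = 0.129). None of the genes of these 4 lists passed the test of the untreated against the mean treated day difference.

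With no gene past the threshold, the genes listed next are those without overlap and with the smallest p. On the higher side, Mmp13, a collagenase, read 6.77, 6.07 and 7.07 at day 14 and 5.55, 5.08 and 5.13 at day 1, a log2 difference of 1.38 (SE 0.35). Lrrn2, a leucine-rich repeat membrane protein, had the smallest p of this side, at 6.41, 5.88 and 5.82 at day 14 and 5.0, 4.53 and 5.08 at day 1, a difference of 1.17 (SE 0.23, adjusted p = 0.319). Gldc, the decarboxylase of the glycine cleavage system, read 8.44, 8.03 and 7.73 at day 14 and 6.87, 6.85 and 7.36 at day 1. It stood 1.04 higher, with 1 of its 3 probe sets lower. Adipor2, an adiponectin receptor, stood 0.84 higher, or 0.43 without sample 22 of day 1, and Slc9a9, an endosomal sodium and proton exchanger, 0.85 higher. With their probe sets averaged the differences were 0.34 and 0.26, since 1 of the 3 probe sets of Adipor2 and 1 of the 2 of Slc9a9 stood lower. Tchh (adjusted p = 0.954), Lrrc15, Fbp1, Lgals4 and Klk1c10 stood 0.88 to 1.16 higher, with no array above 6 for any of them; Klk1c10 belongs to a family of near-identical kallikreins that a probe set may not separate. Bmal1 and Kl complete this side.

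On the lower side, after Nr1d1, Dbp and Tef, Atpaf2, an assembly factor of the mitochondrial ATP synthase, read 8.90, 8.77 and 8.93 at day 14 and 9.50, 9.91 and 9.38 at day 1. Its log2 difference was -0.73 (SE 0.16, adjusted p = 0.954). Cdkal1, an enzyme that modifies transfer RNA, differed by -0.64, and Slc24a3, a calcium exchanger, by -1.09, or by -0.66 without sample 22 of day 1. Plin5, a lipid droplet protein of tissues that burn fat, read 4.26, 5.81 and 4.48 at day 14 and 6.26, 7.74 and 6.21 at day 1, a difference of -1.89 (SE 0.55). It was highest on the array that was also highest for the fat markers, sample 22 of day 1. Igsf1, an immunoglobulin superfamily membrane protein whose loss in humans causes central hypothyroidism, differed by -1.0 (SE 0.26), and both of its probe sets stood lower. Aspg, an asparaginase, differed by -1.35, and Bin2a, Prl7a4 and Rgs22 by -1.29, -0.68 and -0.80, all from low levels.

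Other functions were read from lists in the same way, and none held a called gene. Of all 14217 named genes 7577 stood lower at day 14 and 6640 higher. Follicular genes had a median of -0.03 over 19 measured, and Dio2, the enzyme that activates thyroid hormone, differed by -0.67 (SE 0.31) without overlap near the lower limit of the scale, at 4.17 to 4.53 on day 14 and 4.85 to 5.17 on day 1. The cell cycle list stood lower in 36 of 41 genes, with a median of -0.29, and 11 of them lower without overlap (5.06% of all named genes), but 0 had an unadjusted p under 0.05. Melk, a mitotic kinase, read 6.81, 6.88 and 6.21 at day 14 and 7.65, 7.20 and 7.15 at day 1 (difference -0.70, SE 0.41). Interferon-induced genes stood lower in 19 of 20, with a median of -0.28 and 1 lower at an unadjusted p under 0.05 (1.98% of all named genes), Ifi44 (-0.70, SE 0.27). This median was -0.06 without sample 44 of day 14 and -0.42 with array weights. Respiratory chain subunits stood lower in 24 of 26, by a median of -0.15, with 0 at an unadjusted p under 0.05. Of these 2 were lower without overlap (5.06% of all named genes), and the median was -0.04 without samples 18 and 22. The range of the cell cycle median with single arrays left out was wide on this scale, from -0.39 without sample 43 to -0.16 without sample 47 of day 14.

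Among fast-responding transcription factors, 16 of 19 immediate early genes stood lower with a median of -0.16. Egr3 read 5.20, 5.26 and 4.89 at day 14 and 6.01, 6.11 and 5.89 at day 1, a difference of -0.89 (SE 0.33), and its days did not overlap. Fos and Egr1, classic members of the group, differed by 0.24 and -0.16 with overlap. Genes induced by glucocorticoids, a hormone signal that also follows a daily course, had a median of 0.14 over 15 measured; Fkbp5, Tsc22d3 and Klf9 among them differed by 0.06, 0.14 and -0.01. Single members of that list ran from -0.48 to 0.45, and 1 was higher at an unadjusted p under 0.05 (2.03% of all named genes). Heat shock genes had a median of 0.04, MHC class II genes -0.05, endothelial genes -0.09 and macrophage and mast cell genes -0.07. Ciita, the master regulator of MHC class II genes, differed by -0.63 (SE 0.28) without overlap.

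**Figure D5:**
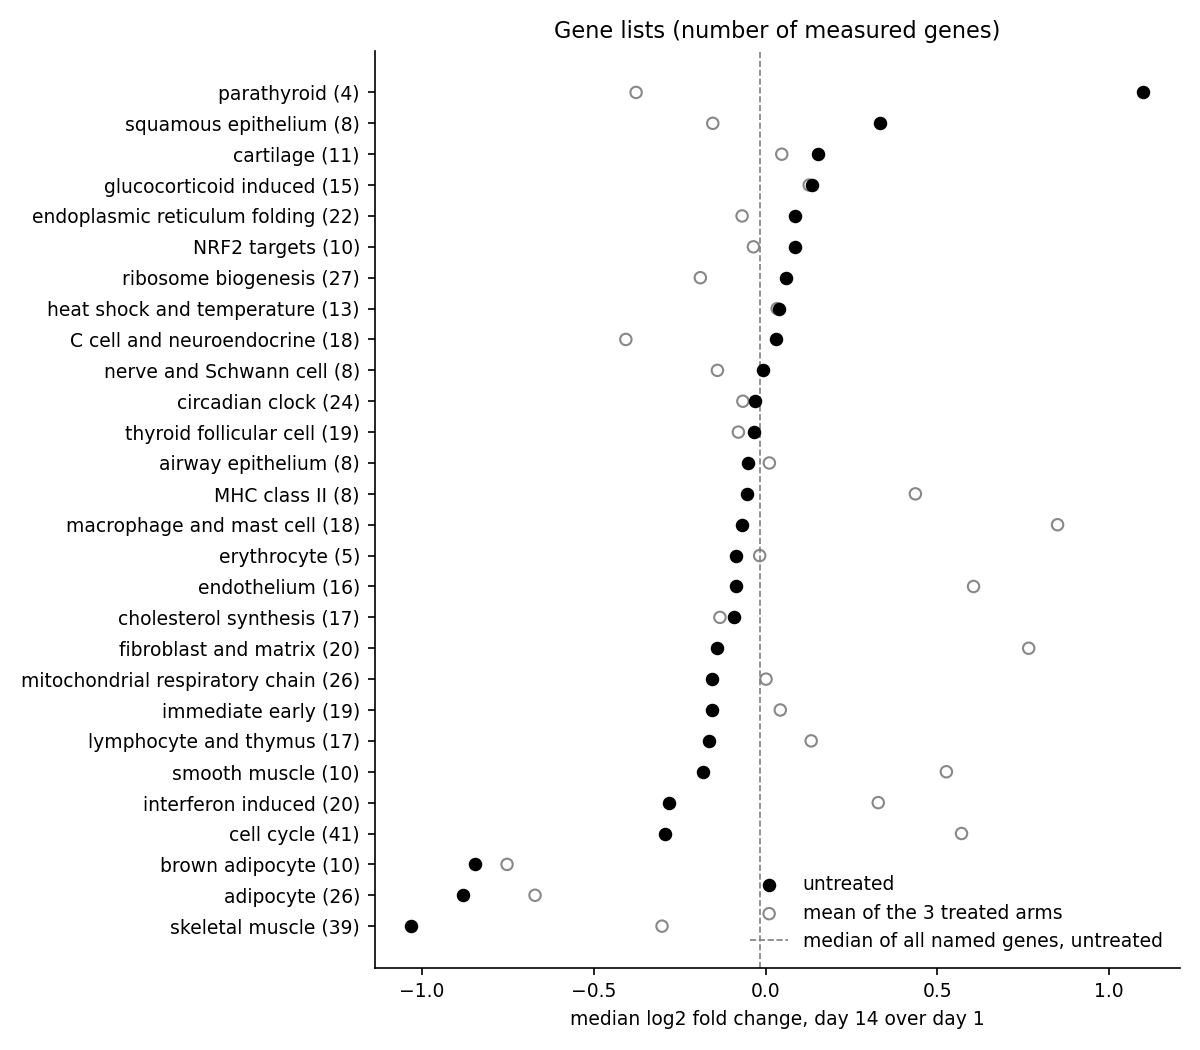
Median log2 fold change, day 14 over day 1, of each gene list in the untreated pair (filled) and averaged over the treated arms (open), with the number of measured genes; the dashed line is the median of all named genes in the untreated pair. Muscle, adipocyte and brown fat lists lie lowest in the untreated pair, at -1.03, -0.88 and -0.85, and the parathyroid list highest, at 1.10.

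The untreated day difference was also set against that of the treated arms, gene by gene. The mean of the treated arms called 1358 of 31042 probe sets (973 higher, 385 lower, 4.37% in all), and the test of the untreated minus the mean treated day difference called 12, all lower in the untreated pair, 0.0387% of those tested. Without any 1 of samples 43, 44 and 47 of day 14 or 21 and 22 of day 1 it called 1, without sample 24 of day 1 it called 3, and with array weights 79, of which 15 were higher. The 12 include 7 of the 14217 named genes by their brightest probe set (0.0492%). Itih3, a heavy chain that binds hyaluronan, read 7.20, 7.21 and 7.27 at untreated day 14 and 6.88, 6.96 and 7.19 at untreated day 1, a log2 difference of 0.21 that did not pass the test. In the treated arms it rose by 3.24 on average, and the difference of the differences was -3.03 (SE 0.33, adjusted p = 0.000228), called in 15 of 15 alternatives. Of the fibroblast and matrix list 16 of 20 genes were called higher in the treated mean, and 0 in the untreated pair, whose median was -0.14 with 5 genes lower without overlap (5.06% of all named genes). Against the diet arm alone, 0 probe sets were called for the difference (limma, 1122 at an unadjusted p under 0.05), and the diet arm itself called 0 (1305 at an unadjusted p under 0.05).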

How the data were processed

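Thyroid RNA of 24 samples was measured on Affymetrix arrays, 1 sample per array. The authors deposited 1 linear intensity for each probe set, made with GCOS, per the submitters' processing notes; its version, its settings and any scaling are not given in the sources used here. Groups and sample numbers were read from the titles. Of the 31099 probe sets 57 controls were left out. The rest were taken as log2(intensity + 16), which understates changes of dim probe sets, and quantile normalized. Limma 3.58.1 in R 4.3.3 took all 24 arrays in 8 groups, with a spread common to the groups (eBayes with a mean-variance trend, two-sided, Benjamini-Hochberg over all 31042 probe sets, called under 0.05). SE is the standard error of a log2 difference, day 14 minus day 1. Detection calls were not used here. Precision is limited by the number of arrays. The number of array pairs with identical values was 0.

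Probe sets were named from the platform annotation where it gives 1 symbol (20826), and the brightest stands for its gene (14217 genes). The 28 lists hold 537 entries, of which 479 were measured. Members, lists and naming rule were chosen with earlier results of these data known. The genes named are the 12 without overlap and with the smallest unadjusted p in each direction (none passed), members of the clock, muscle, adipocyte and parathyroid lists, and of other lists up to 4 with the smallest p; Tg, Pax8, Calca, Lep, Fos, Egr1, Klf9, Fkbp5, Tsc22d3, Ppargc1a and Melk were named after their values were seen, as known members of their lists. The fit was tested on simulated data with 100 changes of log2 size 1 and 100 of size 2 in the untreated pair. It called 50 and 90 of them, with 15 false calls. Alternatives covered the pseudocount, normalization, a filter on dim probe sets, array weights, the trend, the fit's samples, leaving out arrays and averaging probe sets.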

Additional observations from a re-analysis of the deposited data

Results flagged for a closer look

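In 7 genes the day difference in untreated thyroids differed from the mean day difference of the 3 treated arms by the limma test of the difference itself. Itih3 was called in 15 of 15 alternatives. The other 6 were called in 4 to 7 of them, and in 0 or 1 of the 6 that left out 1 untreated array. Aspg and Nrep were the 2 called there, without sample 24 of day 1. Itih3 gave -3.03 (adjusted p = 0.000228), with 0.21 in the untreated pair and 3.24 in the treated mean. Aspg, the asparaginase, gave -2.32 (adjusted p = 0.0447), with -1.35 and 0.96, and its untreated levels lay below 7. The secreted protein gene Srpx2 gave -1.83 (adjusted p = 0.0381), the fibrillar collagen gene Col5a2 -1.48 (adjusted p = 0.0447) and Col3a1 -1.08 (adjusted p = 0.0447). Nrep gave -1.42 (adjusted p = 0.0381) and Ninl, a centrosome protein gene, -1.38 (adjusted p = 0.0447). In all 7 the treated mean was higher at day 14, between 0.78 and 3.24, and the untreated differences lay between -1.35 and 0.21 without passing the test. Perchlorate had been given for 1 or 14 days in 2 of the 3 treated arms, so the days differ there in exposure as well.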

How the results depend on the processing

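The untreated pair gave 0 called probe sets under every alternative but 2: 1 was called without sample 22 of day 1, and 1 without that array and sample 18 of the day 1 perchlorate group, so leaving out 1 array gave 0 to 1. Of 80 genes followed through the alternatives 0 were called in any. Nr1d1 kept its sign in 16 of 16, with log2 differences of -1.61 to -1.24 and adjusted p between 0.0982 and 0.859, Dbp ranged from -1.17 to -0.92, Tef from -0.71 to -0.54 and Bmal1 from 0.64 to 0.87. Signs turned for uncalled genes, most of them near 0. With a gene's probe sets averaged, Cry2 was at -0.063, Tg at 0.067, Usp2 at 0.0054, Csnk1d at 0.026, Nampt at 0.20, Pax8 at 0.11 and Ppargc1a at 0.46. On values as deposited, Klf9 was at 0.00083, Lep at -0.011 and Nampt at 0.012, and with median centring Calca was at -0.037 and Lep at -0.070. With array weights, Tg was at 0.021, Hlf at -0.047, Klf9 at 0.024 and Lep at -0.019. Without samples 18 and 22, Hlf was at -0.19, Calca at -0.025, Csnk1e at -0.0058, Fkbp5 at -0.019, Klf9 at 0.044 and Nampt at 0.0010. With 1 array left out, Tg ranged from -0.16 to 0.042, Hlf from -0.19 to 0.23, Ninl from -0.28 to 0.022, Ppargc1a from -0.091 to 0.022, Calca from -0.043 to 0.12, Csnk1d from -0.12 to 0.055, Csnk1e from -0.0060 to 0.18, Fkbp5 from -0.12 to 0.18, Klf9 from -0.11 to 0.076, Lep from -0.037 to 0.028 and Nampt from -0.058 to 0.0011. The cause was not tested. Of list medians, 436 values moved by less than the spread between arrays and 12 by more. The brown fat median was -1.53 with dim probe sets left out, which keeps fewer of its genes.

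In the other comparisons, the diet arm called 1 with log2(intensity + 1), 1 with the dim filter and 2 with array weights. The perchlorate arm called 2375 with array weights. The arm with diet and perchlorate called 132 on values as deposited, 1593 with array weights and 1211 without samples 18 and 22, and 183 to 261 with 1 untreated array left out. The treated mean called 3680 with array weights and 2325 without samples 18 and 22, and 1225 to 1472 with 1 untreated array left out. The untreated minus treated mean difference called 1 on values as deposited, 5 with median centring, 5 with log2(intensity + 64), 79 with array weights, 1 without the trend, 1 without samples 18 and 22, and 1 to 3 with 1 array left out. The causes were not tested. No paired analysis was possible because the groups share no sample number.

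Limits: 3 arrays a group, unknown detection per probe set, and sample 22 of day 1, which weighs on the fat and parathyroid values. A further limit is sample 18 of the day 1 perchlorate group, which enters the spread common to the groups.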

Other observations

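The 1 probe set called without sample 22 of day 1 carries no gene symbol in the annotation (probe set 1368718_at), and was singled out after its values were seen. It read 12.73, 12.41 and 12.23 in untreated thyroids at day 14 and 8.31, 12.38 and 5.59 at day 1, so that samples 21 and 24 of day 1 were low and sample 22 was not. With all arrays its log2 difference was 3.69 (SE 1.04, adjusted p = 1.00), and without sample 22 it was 5.50 (adjusted p = 0.0188). With perchlorate alone sample 16 of day 1 was also low, at 8.34, and samples 15 and 18 read 12.41 and 11.24. The remaining 15 arrays of the treated arms lay between 12.04 and 13.36.

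Keap1, which encodes the adaptor that marks the antioxidant regulator NRF2 for degradation, had the second smallest p of all, through 1 of its 2 probe sets, at a log2 difference of 1.40 (adjusted p = 0.301). The other, brighter probe set gave -0.14, and both were singled out after their values were seen. NRF2 targets, read from 10 measured genes, had a median of 0.09, with 0 at an unadjusted p under 0.05. Pkp4, a plakophilin of cell junctions, showed the same split, with 1.36 (adjusted p = 0.319) by 1 probe set and 0.08 (adjusted p = 1.00) by the other.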
